A study of Rattus norvegicus with 4 samples.

Results

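Nuclei with the marker counts of parvalbumin interneurons were selected from single-nucleus RNA sequencing of the rat orbitofrontal cortex. A barcode was chosen by its counts of unique molecular identifiers (UMIs, which tag single captured RNA molecules). It needed at least 500 genes, at most 5% mitochondrial UMIs, at least 2 UMIs of Gad1 and Gad2 together, at least 1 of Pvalb, at most 1 each of Slc17a7, Sst and Adarb2, and 0 of Vip. These 7 genes chose the nuclei, so their levels are given as a description only. The rule held for 152 nuclei, here called Pvalb nuclei, out of 3309 GABAergic nuclei (Gad1 and Gad2 together at least 2 UMIs), 43903 barcodes that passed the filters on genes and mitochondrial UMIs, and 46633 barcodes deposited.

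The animals were male Sprague-Dawley rats, wild-type and 8 weeks old, that received either methamphetamine (METH), which drives dopamine and other monoamines out of nerve terminals, or saline. METH was injected intraperitoneally at 1 mg/kg for 7 days, and the title of the series places the rats in a model of sensitization. Tissue of 4 rats per group was taken and 2 libraries per group were deposited, so METH replicates 1 and 2 and saline replicates 1 and 2 are called METH 1, METH 2, saline 1 and saline 2, and sets of 4 values are in that order. The sources used here do not say how the rats were divided over the libraries, so a library may pool animals. A p-value here therefore sets the difference between METH and saline against the spread between libraries. Part of that spread may be technical.

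Parvalbumin interneurons are inhibitory cells of the cortex that fire fast and brief action potentials and release GABA with tight timing onto the cell bodies and axon starts of pyramidal neurons. Their speed rests on Kv3 potassium channels and on fast vesicle release, their energy use is high, and many of them are wrapped in a perineuronal net, a lattice of proteoglycans. They descend from the medial ganglionic eminence, as the somatostatin (Sst) interneurons do, while Vip and Lamp5 cells mostly come from the caudal ganglionic eminence.

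The Pvalb nuclei numbered 63, 30, 32 and 27 in METH 1, METH 2, saline 1 and saline 2. Their summed UMIs, which are the depth behind every level below, came to 372362, 178365, 94499 and 186780. The median nucleus held 5286, 5732, 2727 and 5227 UMIs. Saline 1 therefore stood apart: it had the most barcodes (18958, against 8467 to 10275) and the shallowest nuclei. Between 23 and 69 barcodes were shared by each pair of libraries, none was a Pvalb nucleus in both, and 1 Pvalb nucleus had its barcode among the kept barcodes of another library. Doublets were not removed. By Scrublet's scores, 11 of the 152 (3, 4, 2 and 2) lay among the barcodes with the highest doublet scores. Of all 43903 kept barcodes 4305 did (764 of 9774, 587 of 8565, 2420 of 17393 and 534 of 8171). The cut took a larger part of a larger library. Mitochondrial UMIs had a median of 0.0697% in the Pvalb nuclei and 0.0725% in the other GABAergic nuclei.

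Most Pvalb nuclei stood on a single Pvalb UMI. Of the 152, 132 had exactly 1 Pvalb UMI, 16 had 2 and 4 had 3 or more, with a maximum of 7. Gad1 and Gad2 were both seen in 124 of them, and 28 had just the 2 Gad UMIs required, while 21 barcodes met the rest of the rule with 1 Gad UMI. One UMI of an excluding gene was present in some members (Slc17a7 in 16, Sst in 18, Adarb2 in 3). Of 384 kept barcodes with a Pvalb UMI, 176 were GABAergic, and 24 of these were excluded, 12 for Vip, 8 for Adarb2, 8 for Slc17a7 and 2 for Sst, some for more than 1 gene.

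A Pvalb UMI was seen in 152 of 1799 nuclei (8.45%, exact Clopper-Pearson 95% interval 7.20 to 9.83%) that met the rest of the rule, at a median of 3900 UMIs. In excitatory nuclei (Slc17a7 at least 2 UMIs and no Gad1 or Gad2), which should lack Pvalb, it was seen in 39 of 8769 (0.445%, interval 0.316 to 0.607%) at the higher median of 6117 UMIs. Nuclei with Adarb2 or Vip counts carried it in 17 of 1260 cases (1.35%) and nuclei with at least 2 Sst UMIs in 2 of 187 (1.07%). The intervals cover counting error only. The other 1647 nuclei that met the rest of the rule had no Pvalb UMI. They are described beside the Pvalb nuclei below, because a gene counted once or not at all in a nucleus of this depth is easily missed.

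Pvalb nuclei made up 6.74%, 4.44%, 3.36% and 3.62% of the GABAergic nuclei, which is 5.59 ± 1.62% (SD, n = 2 libraries) under METH and 3.49 ± 0.185% (SD, n = 2) under saline. Each METH share was above each saline share, by 2.10 percentage points on average, and the exact two-sided permutation test gave p = 0.33, the smallest it can give with 2 libraries against 2. Every kept nucleus with at least 2000 UMIs was then thinned to 2000, and the rule was applied again to the thinned counts. Shallower nuclei were left out. These were 8 Pvalb nuclei of saline 1 and none of the other libraries, and 51, 34, 345 and 34 GABAergic nuclei, so saline 1 lost the most. The rule then held for only 15, 8, 8 and 9 nuclei, out of 515, 381, 415 and 420 GABAergic nuclei. The shares were 2.91%, 2.10%, 1.93% and 2.14%. At equal depth the groups overlapped, and the difference was 0.471 points (exact permutation p = 0.667). The overlap rested on METH 2 (exact interval 0.911 to 4.10%) and saline 2 (0.984 to 4.03%). Their counts of 8 and 9 nuclei are too few to order these shares. Leaving out METH 1 reduced the unthinned difference to 0.956 points, and leaving out METH 2 raised it to 3.25 points. As a share of all kept barcodes the Pvalb nuclei were 0.645%, 0.350%, 0.184% and 0.330% (exact permutation p = 0.33). In the excitatory nuclei the share with a Pvalb UMI was 0.524%, 0.668%, 0.293% and 0.342%. This background was thus also higher in both METH libraries. After thinning it was 0.182%, 0.228%, 0.225% and 0.181%, from 1, 1, 2 and 1 nuclei with a Pvalb UMI. Its part in the difference between the groups was not tested.

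**Figure D1:**
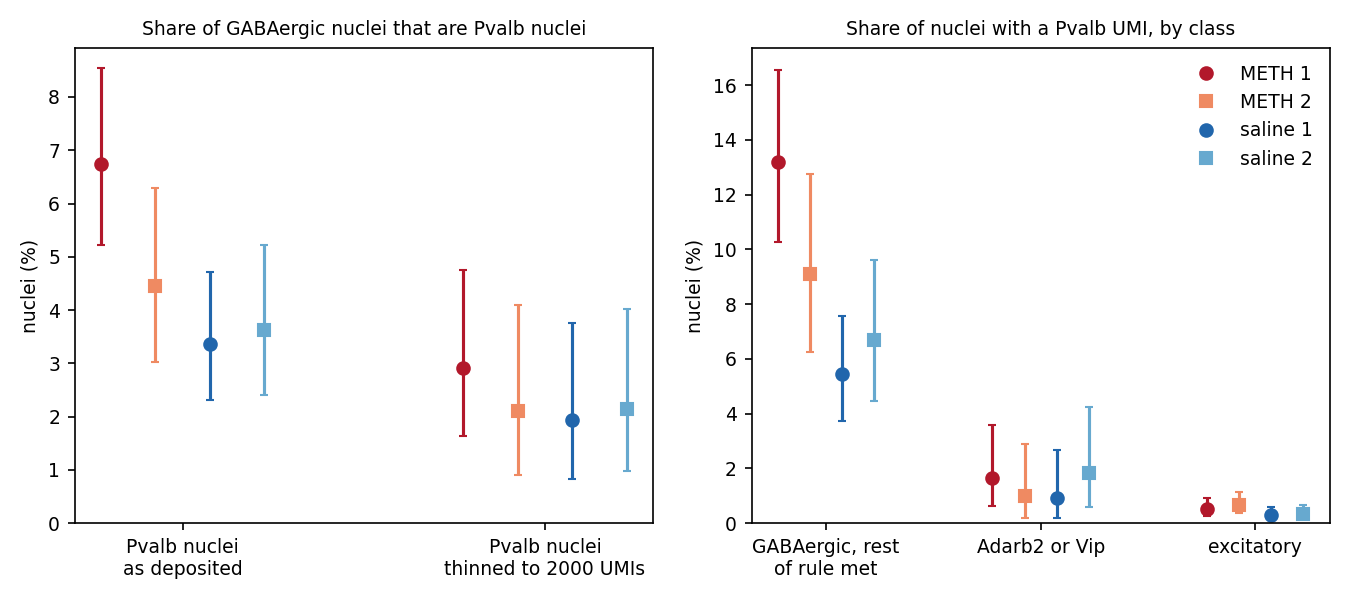
Shares of nuclei per library, in percent, with exact 95% binomial intervals as bars. On the left, Pvalb nuclei among GABAergic nuclei as deposited (6.74%, 4.44%, 3.36% and 3.62%) and after thinning to 2000 UMIs. After thinning, saline 2 (9 of 420 nuclei) lies above METH 2 (8 of 381), with overlapping intervals. On the right, nuclei with a Pvalb UMI among GABAergic nuclei that met the rest of the rule (8.45% over all libraries), among Adarb2 or Vip nuclei (1.35%) and among excitatory nuclei (0.445%).

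Markers listed for Pvalb interneurons that the rule did not use were mostly higher than in the other GABAergic nuclei. Levels are CPM, the UMIs of a gene per 1000000 UMIs summed over a class in a library, and ratios between classes are log2 ratios of CPM with 10 CPM added, averaged over the 4 libraries. Since the classes were cut on the same nuclei, these ratios carry no test. Of 18 markers of Pvalb interneurons outside the rule, 16 reached 20 CPM in every library in one of the classes. Of these, 13 were higher in the Pvalb nuclei than in the other 3157 GABAergic nuclei in all 4 libraries and none was lower in all 4. The median log2 ratio of the 16 was 0.73, against -0.04 over all 6401 genes at that level, of which 982 (15.3%) were higher in all 4 libraries and 1113 (17.4%) lower. The summed level of the 18 markers was 14918, 16136, 14318 and 16731 CPM in the Pvalb nuclei, and 9616, 9125, 8488 and 9789 CPM in the other GABAergic nuclei.

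Kcnc2, a Kv3 potassium channel that lets a neuron repolarize fast, was counted in each of the 152 Pvalb nuclei. Its level was 6220, 6745, 5450 and 7008 CPM. It averaged 6356 CPM there, 5085 in the nuclei that met the rule but for Pvalb, 2711 in Sst nuclei, 1608 in Adarb2 or Vip nuclei and 431 in excitatory nuclei. Kcnc1, its partner subunit, had 580, 600, 603 and 578 CPM, a narrow range, against 382 CPM in the nuclei with no Pvalb UMI and 122 in Sst nuclei. Btbd11, an ankyrin-repeat protein of inhibitory neurons, was detected in 82.9% of the Pvalb nuclei, 51.7% of those with no Pvalb UMI, 21.9% of Sst and 41.6% of Adarb2 or Vip nuclei. After thinning to 2000 UMIs it was detected in 62.5% of the Pvalb nuclei, 41.0% of those with no Pvalb UMI and 30.1% of Adarb2 or Vip nuclei. Erbb4, the receptor through which neuregulin sets excitatory drive onto these cells, was also found in each of the 152 Pvalb nuclei, and in 35.8% of Sst nuclei. Adarb2 or Vip nuclei also carried it (97.1%), so it separates the Pvalb nuclei from Sst nuclei alone.

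Markers of the lineage shared with Sst cells were higher in the Pvalb nuclei than in the Adarb2 or Vip nuclei. Sox6, a transcription factor that matures cells of the medial ganglionic eminence, averaged 1700 CPM in Pvalb, 1488 in Sst and 226 in Adarb2 or Vip nuclei. In the 20 nuclei with at least 2 Pvalb UMIs its mean log2 ratio to the other GABAergic nuclei was -0.90, against 0.83 in all 152. Satb1, a chromatin organizer of the same lineage, was lower in Pvalb nuclei (522 ± 57.4 CPM, SD, n = 4 libraries) than in Sst nuclei (995 ± 141), and stood at 119 ± 20.3 CPM in Adarb2 or Vip nuclei. Lhx6, which specifies the lineage, was sparse: 9, 8, 2 and 6 UMIs, or 30.6 ± 10.6 CPM (SD, n = 4), against 46.7 ± 21.3 CPM in Sst and 5.64 ± 0.581 CPM in Adarb2 or Vip nuclei. The vesicular GABA transporter Slc32a1 had 12, 2, 0 and 2 UMIs. Cox6a2, a cytochrome oxidase subunit known from these cells, was at 1 UMI in all 152 nuclei, so it could not be used as a marker at this depth.

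**Figure D2:**
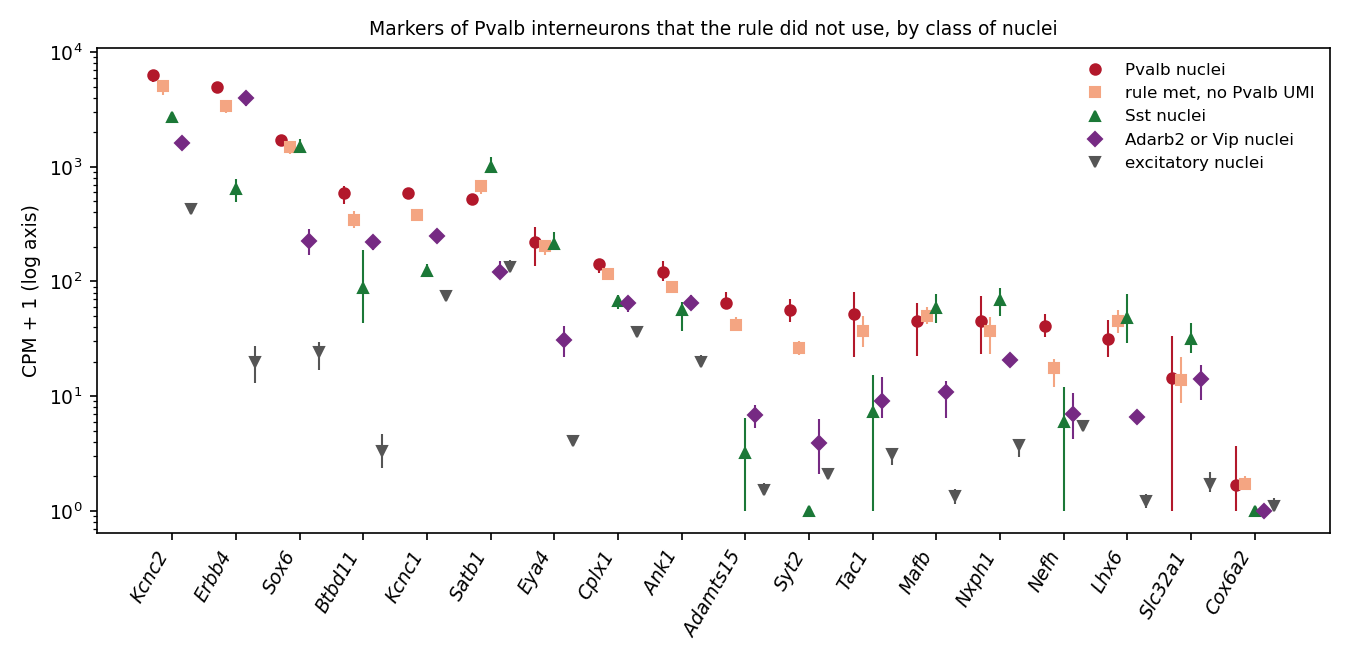
Levels of the 18 markers of Pvalb interneurons outside the rule, as CPM + 1 on a log axis, in 5 classes of nuclei. Points are means of the 4 libraries and bars run from the lowest to the highest library. The Pvalb nuclei lead for Kcnc2 (6356 CPM), Erbb4 (4939 CPM) and Syt2 (55.4 CPM), and Sst nuclei lead for Satb1 (995 CPM).

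Markers of other interneurons were mostly lower than in the other GABAergic nuclei. Of those at the level, 4 of 5 Sst markers, 4 of 4 Vip and caudal markers and 3 of 4 Lamp5 markers were lower in all 4 libraries, and none was higher. Of the Sst markers Elfn1, a synaptic protein that recruits facilitating inputs, had 8, 1, 0 and 1 UMIs, a mean of 8.11 CPM against 217 CPM in Sst nuclei. Grin3a, an NMDA receptor subunit, had 40.1 CPM against 801. Reln, a secreted glycoprotein, was present at 356 CPM, below 2293 in Sst and 1994 in Adarb2 or Vip nuclei. Detection did not set all Sst markers apart. Grik1, a kainate receptor subunit, was seen in 68.4% of the Pvalb and 59.9% of the Sst nuclei (46.5% and 48.9% after thinning), while its level was 410 against 955 CPM. Nos1, which makes nitric oxide, was seen in 16.4% and 13.9% (4.86% and 7.14% after thinning), at 35.3 against 75.8 CPM. Of the caudal lineage, Prox1 had 0 UMIs in all 4 libraries of Pvalb nuclei and 60.3 to 75.9 CPM in the other GABAergic nuclei. Lamp5 had 2 UMIs in all, both in saline 2. Npy was at 0 in each class of GABAergic nuclei, so its absence distinguishes nothing here.

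Of 6 excitatory markers at the level, 1 was higher than in the other GABAergic nuclei in all 4 libraries and 3 lower. The 10 outside the rule summed to 921, 757, 857 and 980 CPM. The other GABAergic nuclei had 965, 862, 1139 and 904 CPM, so the Pvalb nuclei were not lower in saline 2. Excitatory nuclei had 2981, 3018, 2865 and 2981 CPM. Of these markers Camk2a, a calcium-dependent kinase, had 351 CPM against 1182 CPM in excitatory nuclei. The 7 markers of chandelier cells, which target axon starts, together had a median of 1 UMI per nucleus, and 52 nuclei had none. Glial markers were unevenly spread. The 10 astrocyte markers summed to 704, 1048, 656 and 551 CPM. That was above the other GABAergic nuclei in every library (505, 601, 588 and 472 CPM). The 9 oligodendrocyte markers summed to 282, 1015, 53 and 225 CPM, and 6 nuclei (3, 2, 0 and 1) held at least 5 of their UMIs each. Those 6 all had high doublet scores and carried 52 of 105 such UMIs in METH 1, 162 of 181 in METH 2 and 32 of 42 in saline 2. A single METH 2 nucleus held 132.

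Few genes stood far above the other GABAergic nuclei in every library. Of 6401 genes, 9 (0.141%) were at least 2-fold higher in all 4 libraries and 136 (2.12%) at least 2-fold lower, and the 9 were Tafa2, Sgpp2, Egflam, Mybpc1, Slit2, Syt2, Dock4, Akain1 and Cntnap5c. Slit2, a secreted guidance ligand of Robo receptors, had 1031, 1093, 910 and 1007 CPM in the Pvalb nuclei and 413, 297, 416 and 381 CPM in the other GABAergic nuclei. All 4 pairs were apart by more than 2-fold, and the mean log2 ratio was 1.41 ± 0.31 (SD, n = 4). Slit2 was counted in 82.9% of the Pvalb nuclei, 49.1% of those with no Pvalb UMI, 12.8% of Sst and 15.2% of Adarb2 or Vip nuclei.

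Tafa2, a secreted chemokine-like protein, had 655, 482, 646 and 728 CPM against 241, 200.5, 233 and 225 CPM. Dock4, an activator of Rac and Rap GTPases, averaged 1234 CPM against 497. Sgpp2, which removes the phosphate of sphingosine-1-phosphate, averaged 183 CPM against 66.2. Egflam, a matrix protein, had the most even ratio of the 9, at 1.21 ± 0.06 (SD, n = 4). Akain1, named as an inhibitor of A-kinase anchoring, had a ratio of 1.30 ± 0.23.

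Mybpc1, a myosin-binding protein first known from slow muscle fibres, had 228, 157, 116 and 128 CPM in the Pvalb nuclei and 71.2, 57.3, 47.1 and 41.5 CPM in the other GABAergic nuclei. It was 1.64 CPM in Sst and 31.2 CPM in Adarb2 or Vip nuclei, and 80.1 CPM in the nuclei with no Pvalb UMI. Only 23.0% of the Pvalb nuclei held a Mybpc1 UMI, so its level came from a minority of them.

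At the other end, several of the lowest genes were high in Sst or in Adarb2 or Vip nuclei. Sv2c, a synaptic vesicle protein, had 1, 0, 1 and 2 UMIs, a mean of 5.99 CPM against 191 in the other GABAergic nuclei and 439 in Adarb2 or Vip nuclei. Shisa6, an auxiliary protein of AMPA receptors, had 8, 0, 0 and 12 UMIs and was highest in Sst nuclei (1138 CPM). Grm7, a metabotropic glutamate receptor, had 252, 50.5, 106 and 123 CPM against 2217 in Sst nuclei. Sorcs3, a sorting receptor, was evenly low, at 45.7, 50.5, 42.3 and 37.5 CPM against 341, 374, 316 and 295 CPM. In nuclei with no Pvalb UMI, Grm7 (1004 CPM) and Shisa6 (356 CPM) stood near the level of all other GABAergic nuclei (1159 and 374 CPM), so the 1647 were not all like the Pvalb nuclei.

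**Figure D3:**
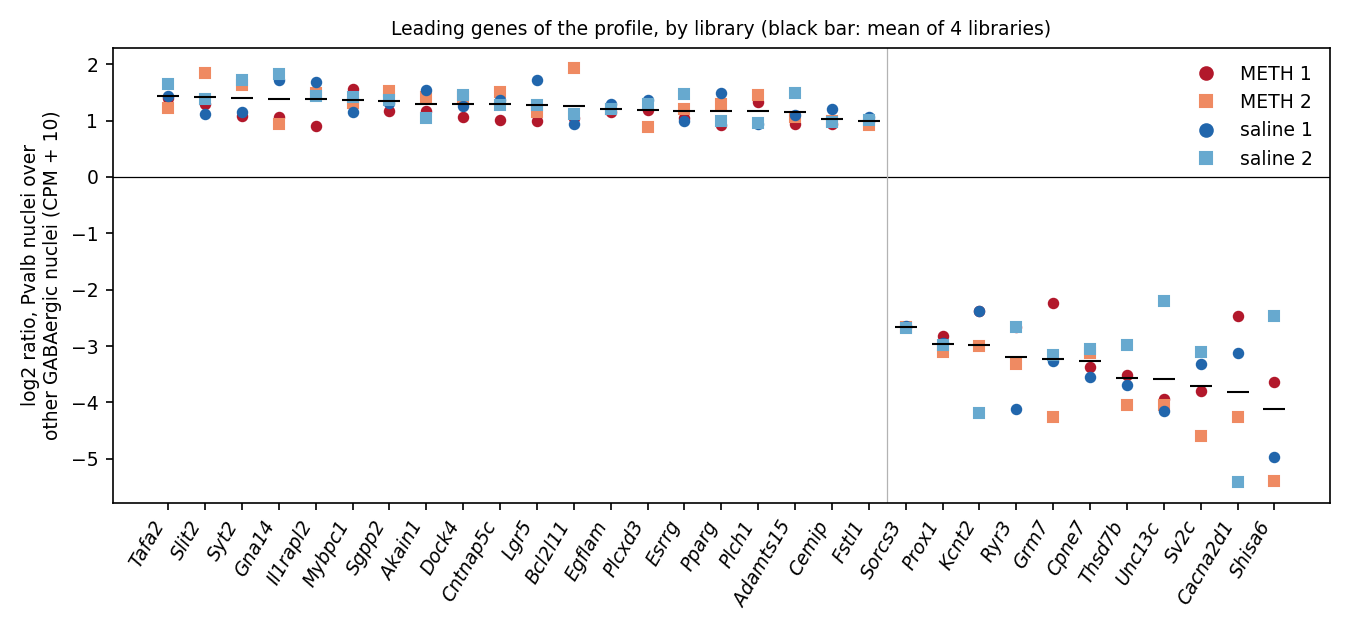
Log2 ratio (CPM + 10) of the Pvalb nuclei over the other GABAergic nuclei for 20 of the highest and 11 of the lowest genes, with 1 point per library and a black bar at the mean of the 4. Of the 20, 9 lie above 1 in every library, and Slit2 has a mean of 1.41; Shisa6 and Cacna2d1 have the widest spread among the lowest genes.

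Where at least 2 Pvalb UMIs were required, 20 nuclei were left (11, 3, 2 and 4), with 5415 UMIs in saline 1. Of the named genes above the other GABAergic nuclei in all 4 libraries, the mean ratio was then below 0 for 9 of 44. Of those below in all 4 it was above 0 for 2 of 30, Mt-cyb (0.018) and Chd5 (0.074). With 1 library left out, or another pseudocount or minimum level, none changed sign. The 9 were Plch1 (-0.021), Cemip (-0.39), Sox6 (-0.90), Cplx1 (-0.44), Abat (-0.78), Has1 (-0.99), Tenm3 (-0.66), Atp5f1a (-0.074) and Slc25a4 (-0.22).

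Genes for fast spiking were more often higher than lower. Of 24 listed channel genes, 21 reached the level, 12 were higher in the Pvalb nuclei in all 4 libraries and 1 lower, with a median log2 ratio of 0.40. Over all 6401 genes at the level, 15.3% were higher in all 4 libraries and 17.4% lower. The Kv3 subunits Kcnc1 (0.93 ± 0.08, SD, n = 4) and Kcnc2 (0.88 ± 0.15) stood beside the Kv1 subunits Kcna1 (0.81 ± 0.21) and Kcna2 (0.81 ± 0.28), which sit on axons. Kcns3, a silent subunit that modifies Kv2 channels, had 242, 376, 265 and 332 CPM, against 167 CPM on average in the other GABAergic nuclei. Scn1a, the sodium channel of interneuron axons, averaged 1079 CPM against 828. The exception was Fgf13, a sodium channel partner, with 29.5, 44.9, 42.3 and 75.0 CPM against 213, 249, 257 and 196 CPM. Scn4b was near the limit of detection, with 2, 0, 1 and 0 UMIs.

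Among the genes for GABA synthesis and release, 4 of 19 at the level were higher in all 4 libraries and 7 lower. The shares over all genes were 15.3% and 17.4%. The 4 were Syt2, Vamp1, Cplx1 and Abat. Syt2, the fast calcium sensor of release, had 16, 10, 5 and 13 UMIs, or 43.0, 56.1, 52.9 and 69.6 CPM, while the other GABAergic nuclei had 15.2, 11.3, 18.4 and 14.1 CPM and Sst nuclei none. Vamp1 (0.61 ± 0.24, SD, n = 4) and Cplx1 (0.58 ± 0.13) belong to the same release machine, and Abat, which breaks GABA down, had 0.52 ± 0.15. Of these, Cplx1 and Abat were below 0 where at least 2 Pvalb UMIs were required. Their counterparts were lower: Cplx2 had 2, 0, 1 and 1 UMIs, and Unc13c, a vesicle priming factor, had 1, 1, 0 and 8.

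The receptors through which the nuclei receive GABA differed by subunit. Of 15 genes at the level, 3 were higher in all 4 libraries and 5 lower, beside 15.3% and 17.4% of all genes. Gabra4 was among the higher, with 526, 460, 423 and 460 CPM against 364 CPM on average in the other GABAergic nuclei (0.35 ± 0.18, SD, n = 4). Gabra2 was lower, at 26.3 against 106 CPM, with Gabrg1, Gabra5, Gabrb1 and Gabbr1. Gabrd, the subunit of extrasynaptic receptors, was uneven at 48.3, 123, 52.9 and 102 CPM, and METH and saline libraries overlapped.

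For excitatory input, 6 of 25 genes were higher in all 4 libraries and 11 lower, beside 15.3% and 17.4% of all genes. The 6 were Erbb4, Gria3, Gria4, Grm5, Cacng2 and Lrrtm2. Gria4, an AMPA receptor subunit of fast kinetics, averaged 3782 CPM against 2747 in the other GABAergic nuclei and 1949 in Sst nuclei. Cacng2 is the AMPA receptor partner stargazin and had a log2 ratio of 0.47 ± 0.32 (SD, n = 4). Gria1 was on the lower side, at 701 CPM against 772 CPM. Among the lowest were Grm7, Grin3a and Elfn1, which were high in Sst nuclei.

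The perineuronal net list was divided. Of 20 genes, 10 reached the level, 4 of them higher in all 4 libraries and 2 lower, beside 15.3% and 17.4% of all genes. Adamts15, a protease that cuts the net's proteoglycans, was higher in all 4 libraries (56.4, 56.1, 63.5 and 80.3 CPM against 23.1 on average), as were the proteoglycan Bcan (95.6 against 45.3 CPM), Has1 and Ptprz1; Has1 was lower with at least 2 Pvalb UMIs. Vcan, a proteoglycan more typical of glia, was lower, with 5, 1, 0 and 1 UMIs. Acan, the main proteoglycan of the nets, had 14, 3, 0 and 1 UMIs. It was found in 10.5% of the Pvalb nuclei and 5.22% of those with no Pvalb UMI, and in 0 of 187 Sst nuclei. Acan was detected after thinning in 3.47% of the Pvalb nuclei (5 of 144) and 2.99% of those with no Pvalb UMI (41 of 1372). At equal depth these shares lay close together. Hapln4, a link protein of the net, was detected in 21.1% of the Pvalb nuclei, 11.8% of those with no Pvalb UMI and 3 of 187 Sst nuclei. After thinning it was detected in 9.03%, 6.27% and 1.65% of these classes.

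Nuclear energy genes were more often higher than lower, and mitochondrial transcripts were not. Of 14 nuclear genes for mitochondrial energy at the level, 8 were higher in all 4 libraries and 1 (Gclm, for glutathione synthesis) lower, with a median log2 ratio of 0.35. Over all genes, 15.3% were higher in all 4 libraries and 17.4% lower. Ppargc1a, the coactivator that raises mitochondrial genes in these interneurons, had 400.1, 454, 296 and 418 CPM against 185 on average, and Esrrg, the nuclear receptor it works with, had 236, 224, 233 and 332 CPM against 107. Slc25a4 and Atp5f1a, for ATP exchange and synthesis, had ratios of 0.50 ± 0.22 and 0.65 ± 0.34 (SD, n = 4), both below 0 with at least 2 Pvalb UMIs. Of 8 transcripts encoded by mitochondrial DNA at the level, 4 were lower in all 4 libraries and none higher; in nuclei such transcripts come from outside the nucleus.

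Among transcription factors Esrrg, Sox6, Mef2c and Satb1 were higher in all 4 libraries and 7 of 19 lower, led by Prox1, Npas1 and Nr2f2, which mark other interneuron classes. Genes of axon guidance and synapse choice split as well, with 8 of 34 higher and 15 lower. For both lists the shares over all genes were 15.3% higher and 17.4% lower. Beside Slit2, the higher ones included Il1rapl2 (1.37 ± 0.33, SD, n = 4), Cntnap4 (1.05 ± 0.17), which organizes GABA release, and Tenm3 (0.95 ± 0.22). Sox6 and Tenm3 were below 0 with at least 2 Pvalb UMIs. Sema3a, a repellent ligand, had 12, 5, 0 and 2 UMIs.

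Receptors of neuromodulators were mostly too sparse to describe. Of 37 listed, 9 reached the level, 1 of them higher in all 4 libraries and 5 lower, beside 15.3% and 17.4% of all genes. The higher one was Oprd1, the delta opioid receptor, at 102, 118, 74.1 and 102 CPM against 58.1 on average. Lower were Htr2c, Adra1b, Cnr1, Chrna7 and Oprm1, and the cannabinoid receptor Cnr1 had 27.9 CPM against 277 in Adarb2 or Vip nuclei. The dopamine receptors bear on a drug that releases dopamine: Drd1 had 0, 0, 1 and 0 UMIs and Drd2 11, 3, 0 and 1, while Drd5 was at 0 in each class. Tac1, the peptide precursor of substance P found in a portion of Pvalb cells, had 19, 9, 2 and 15 UMIs and averaged 50.7 CPM against 6.28 in Sst nuclei. Of the calcium genes, the release channel Itpr1 and the membrane pump Atp2b2 were higher and 10 of 20 lower, led by Ryr3.

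METH was then compared with saline within the Pvalb nuclei, on UMIs summed per library. No gene passed: 0 of 3926 genes tested (0%) had an adjusted p under 0.05 by edgeR's quasi-likelihood test with Benjamini-Hochberg adjustment, 178 had an unadjusted p under 0.05 (100 higher and 78 lower under METH), and DESeq2 also called 0, with 14 at an unadjusted p under 0.05. The median log2 fold change was 0.00, and the common biological coefficient of variation was 0.107. Leaving out METH 1 gave 7 calls, among them Cst3, leaving out METH 2 gave 0, leaving out saline 1 gave 1 (Cdh9) and leaving out saline 2 gave 2, among them Il1rapl2; the lone library left in a group is then assumed to vary like the other group. The groups did not overlap in 2 sets of genes: METH was higher for 704 (17.9%) and lower for 660 (16.8%). Genes are named below as those with the smallest p and as members of the lists, with their values.

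Hook1, an adaptor that ties cargo to the dynein motor on microtubules, had the smallest p on the METH side. It was counted 50, 27, 4 and 8 times, or 134, 151, 42.3 and 42.8 CPM. Both METH libraries were more than 3 times the saline libraries, and the log2 fold change was 1.70 (SE 0.39, edgeR adjusted p = 0.500). The UMIs were spread over 59 nuclei, with at most 6 in one. In the nuclei with no Pvalb UMI, Hook1 stood at 107, 113, 120 and 111 CPM, and the log2 fold change was -0.08 (edgeR adjusted p = 0.998). The METH effect on Hook1 differed between the Pvalb nuclei and all other GABAergic nuclei by 1.72 on the log2 scale (SE 0.44), which did not pass (edgeR adjusted p = 0.214).

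Pcdh19, a protocadherin of cell adhesion, showed the same arrangement, with 99.4, 95.3, 52.9 and 26.8 CPM in the Pvalb nuclei (log2 1.43, SE 0.45) and 68.6, 70.4, 67.1 and 71.1 CPM in the nuclei with no Pvalb UMI. Nasp, a histone chaperone, had 24, 16, 0 and 4 UMIs. Neither passed (edgeR adjusted p = 0.994 for both).

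On the saline side, Il1rapl2, a synaptic adhesion receptor of the interleukin-1 receptor family and also a leading gene of the Pvalb profile, had 2197, 2119, 3979 and 2929 CPM. Both METH libraries were below both saline libraries, with saline 1 the highest, and the log2 fold change was -0.67 (SE 0.15, edgeR adjusted p = 0.500). One saline 2 nucleus held 154 of its 547 UMIs. The nuclei with no Pvalb UMI had 1709, 1271, 1723 and 1682 CPM, where METH 2 was low and METH 1 was not. Leaving out saline 2 moved the fold change to -0.87 (edgeR adjusted p = 0.0233), and leaving out saline 1 moved it to -0.45 (edgeR adjusted p = 0.993). After thinning to 2000 UMIs it was -0.40 (edgeR adjusted p = 0.995).

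Bcl11a, a zinc-finger transcription factor of neuron identity, had 290, 292, 561 and 434 CPM (log2 -0.74, SE 0.21, edgeR adjusted p = 0.907). In the nuclei with no Pvalb UMI it was flat, at 538, 566, 552 and 542 CPM. Pde11a, a phosphodiesterase that degrades cyclic nucleotides, had 18, 7, 9 and 25 UMIs, 13 of them in 1 saline 2 nucleus, and Styxl1, an inactive phosphatase-like protein, had 14, 6, 10 and 19. Ttc19, an assembly factor of respiratory complex III, had 102, 78.5, 180 and 187 CPM. Groups did not overlap for any of these 4, which holds for 16.8% of all genes in that direction.

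**Figure D4:**
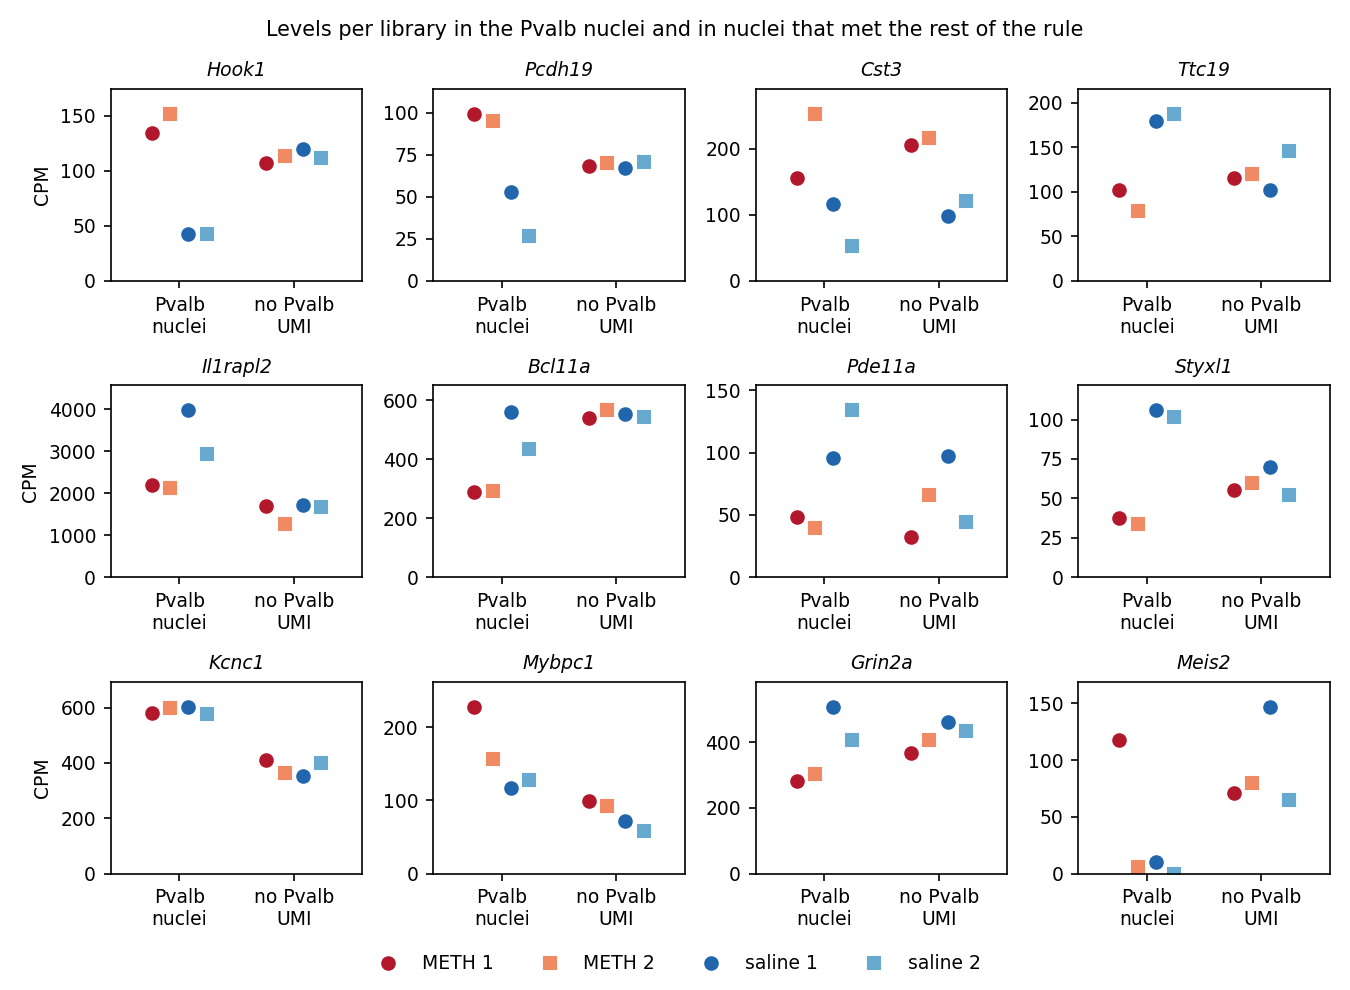
CPM per library of 12 genes in the Pvalb nuclei (left in each panel) and in the nuclei that met the rest of the rule with no Pvalb UMI (right). For Hook1 the METH libraries are at 134 and 151 CPM and the saline libraries at 42.3 and 42.8 CPM on the left, and all 4 lie between 107 and 120 CPM on the right; for Cst3 both sides have METH above saline.

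Cst3 encodes cystatin C, which cells secrete to block cysteine proteases and which glia make in quantity. It was on the list because its METH values in inhibitory nuclei were already known from these files, so its direction here is not independent evidence. It had 156, 252, 116 and 53.5 CPM from 58, 45, 11 and 10 UMIs, with both METH libraries on top. The log2 fold change was 1.34 (SE 0.38, edgeR adjusted p = 0.907), and a single METH 2 nucleus held 21 UMIs. Without METH 1 it was 1.72 and passed (edgeR adjusted p = 0.00796), and without saline 2 it was 0.75 (edgeR adjusted p = 0.952). When the nuclei with no Pvalb UMI were taken in, Cst3 was the 1 gene of 10694 that passed (log2 0.94, edgeR adjusted p = 0.0125). In those nuclei alone the levels were 205, 216, 97.7 and 121 CPM (log2 0.93, edgeR adjusted p = 0.00957). Between the Pvalb nuclei and all other GABAergic nuclei, the METH effect on Cst3 differed by 0.43 on the log2 scale (edgeR adjusted p = 1.000).

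Glial transcripts were uneven over the libraries and mostly higher under METH. The 9 oligodendrocyte markers summed to 282 and 1015 CPM under METH and 53 and 225 CPM under saline, with 0, 1, 6 and 2 of the 9 at 0, and 3 could be tested, all higher under METH. The 11 microglial markers summed to 150 and 336 CPM under METH and 106 and 80 under saline, with 2, 0, 7 and 8 of the 11 at 0. The 10 astrocyte markers summed to 704 and 1048 CPM against 656 and 551, with 4, 2, 6 and 5 at 0. Leaving out the 6 nuclei with at least 5 oligodendrocyte UMIs, a choice made after seeing the data, gave 0 genes called and log2 fold changes of 1.32 for Cst3 and 1.62 for Hook1. In the nuclei with no Pvalb UMI, oligodendrocyte markers summed to 292, 250, 311 and 197 CPM. Astrocyte markers summed to 598, 701, 676 and 559 CPM there, and microglial markers to 145, 186, 167 and 127 CPM. The groups overlapped in each of these sums. The part of glial RNA in the Cst3 values was not tested.

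Genes of the Pvalb phenotype gave no call between the treatments. Of the 18 fast-spiking channel genes tested, none was called, 14 had a fold change below 0 and 4 above, and the median log2 fold change was -0.08, beside 0.00 over all genes. Kcnc1 differed by 0.00 (SE 0.17) and Kcnc2 by 0.04 (SE 0.15), both with overlapping groups. Scn2a, a sodium channel, had 481, 426, 698 and 514 CPM (log2 -0.37, SE 0.19).

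Of 13 genes tested for GABA synthesis and release, 11 had a value below 0, with a median of -0.15. Rims1, a scaffold of the release site, had 1466, 1430, 1651 and 1858 CPM (log2 -0.29, SE 0.15), so both METH libraries were lower. Of 10 receptor genes 7 were above 0, and Gabbr2, the GABA-B subunit, had 451, 460, 571 and 637 CPM (log2 -0.43, SE 0.17) while Gabrb1 had 381, 454, 339 and 300 CPM (log2 0.38, SE 0.21). None of them was called (edgeR adjusted p = 0.994 for each).

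On the side of excitatory input, 15 of 19 genes tested were below 0, with a median of -0.08, and none was called. Grin2a, the NMDA receptor subunit of mature synapses, had 282, 303, 508 and 407 CPM (log2 -0.63, SE 0.21, edgeR adjusted p = 0.994). In the nuclei with no Pvalb UMI it had 367, 406, 460 and 434 CPM. Cacng3, an auxiliary protein of AMPA receptors, had 26, 9, 15 and 18 UMIs (log2 -0.91, SE 0.37). Both METH libraries were lower for both genes. For Grin2a, 23 of the 76 saline 2 UMIs came from 1 nucleus, and for Cacng3, 6 of the 18 came from 1 nucleus.

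The lists for the net, energy and identity were spread to both sides. Of 6 perineuronal net genes tested 3 were above 0 and 3 below, with Adamts15 at -0.40 (SE 0.42) and Bcan at -0.35 (SE 0.40), both well inside their error. Of 10 nuclear energy genes 5 were above 0 and 5 below, and Cox4i1, a subunit of cytochrome oxidase, had 80.6, 123, 52.9 and 32.1 CPM (log2 1.27, SE 0.46). Of 7 mitochondrially encoded genes 5 were above 0, led by Mt-atp6 at 0.88 (SE 0.41), whose groups overlapped. Of 9 transcription factors 6 were below 0 and 3 above. Of 29 genes of guidance and synapse choice 19 were below 0 and 10 above, and Tenm2, a teneurin of synaptic adhesion, had 303, 235, 339 and 412 CPM (log2 -0.48, SE 0.22). For Tenm2, 25 of the 77 saline 2 UMIs came from 1 nucleus.

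Of 15 calcium genes 7 were above 0 and 8 below, with Itpr1 at -0.23 (SE 0.16) and the calcineurin subunit Ppp3cb at -0.49 (SE 0.30). The 3 neuromodulator receptors that could be tested were near 0, with Oprd1 at 0.22 (SE 0.34) and Adra1a, a noradrenaline receptor, at -0.07 (SE 0.23). Mybpc1 was higher in both METH libraries (log2 0.68, SE 0.31, edgeR adjusted p = 0.994). It was counted in 18, 6, 3 and 8 nuclei, and 1 METH 2 nucleus held 14 of that library's 28 UMIs. Mybpc1 levels in the nuclei with no Pvalb UMI, 99.2, 92.2, 71.6 and 57.6 CPM, had the same order of groups (log2 0.57, edgeR adjusted p = 0.998). Like Cst3, Mybpc1 was listed from earlier results of these files, so its direction in either class is not independent evidence.

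**Figure D5:**
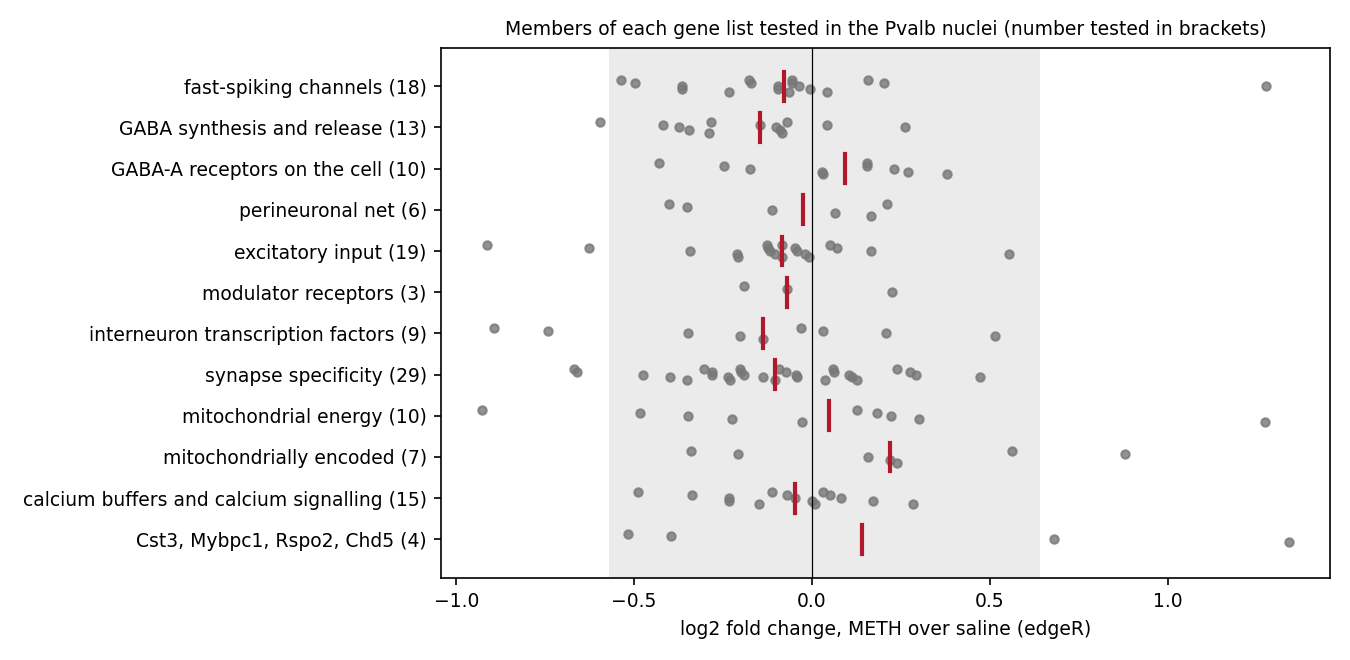
Log2 fold change (METH over saline, edgeR) of each tested member of 12 gene lists in the Pvalb nuclei; red bars are list medians and the grey band runs from the 5th to the 95th percentile of the 3926 genes tested. Medians lie between -0.15 and 0.22, and the members outside the band, such as Cox4i1 (1.27), did not pass.

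Activity-induced genes were sparse in the Pvalb nuclei, apart from Homer1. Of 23 such genes in the files, 6, 14, 17 and 17 were at 0 UMIs. They summed to 585, 342, 593 and 359 CPM, against 663, 492, 742 and 617 CPM in the other GABAergic nuclei and 1566 to 2118 CPM in excitatory nuclei. Fos, the standard mark of recent firing, had 2, 0, 0 and 0 UMIs, and Arc and Npas4 had 0 in all 4 libraries. The limit that a count of 0 allows is 3 UMIs per library. Homer1 was the 1 member with enough counts to be tested, at 494, 286, 508 and 327 CPM, most of each sum (log2 0.04, SE 0.25). Replicate 1 of each group was high and replicate 2 low, so the groups overlapped.

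Whether METH acted differently in the Pvalb nuclei than in the other GABAergic nuclei was tested with a class-by-treatment term and the library as a block. It called 1 of 10737 genes (0.00931%), with 471 at an unadjusted p under 0.05. The gene was Meis2, a homeobox transcription factor of projection neurons of the striatum and some interneurons. In the Pvalb nuclei it had 44, 1, 1 and 0 UMIs, or 118, 5.61, 10.6 and 0 CPM, so METH 1 alone was high. One METH 1 nucleus held 38 of the 46 UMIs. The term was 4.78 on the log2 scale (edgeR adjusted p = 0.00881), 1.03 without METH 1 (adjusted p = 1.000), 5.40 without METH 2 (adjusted p = 1.39e-06), 10.46 without saline 1 (adjusted p = 0.738) and 3.50 without saline 2 (adjusted p = 0.965). The nuclei with no Pvalb UMI had 70.7, 80.0, 147 and 64.6 CPM. In the other direction Foxp2, Pde11a and Styxl1 had the smallest p without passing (edgeR adjusted p = 0.145, 0.286 and 0.701). Foxp2, another transcription factor, had 3, 0, 2 and 14 UMIs, 9 of them in 1 saline 2 nucleus, and its term of -3.25 became -4.18 without saline 1 and then passed (edgeR adjusted p = 0.00305).

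The 152 nuclei were not uniform. Clustering them alone, without the 7 genes of the rule, gave 7 clusters of 8 to 35 nuclei. The genes below define the clusters and are described, not tested, and none of the clusters is given a cell type name. The cluster of 28 was led by Mybpc1 (126 UMIs in 25 of its nuclei, 733 CPM against 33.3 in the rest), with Tcerg1l, Esr2, an oestrogen receptor, Sorcs1 and Drd2, the D2 dopamine receptor. Of the 15 Drd2 UMIs of all Pvalb nuclei, 13 were in this cluster, in 6 nuclei. The cluster of 32 was led by Pde11a, Nkain3, Il1rapl2 and Calb1, and Il1rapl2 reached 7379 CPM there against 1406 in the rest. It held 1173 of the 2119 Il1rapl2 UMIs of all Pvalb nuclei. Its nuclei numbered 10, 4, 12 and 6 of the 63, 30, 32 and 27, a larger part of each saline library than of each METH library. Il1rapl2 and Pde11a, which had lower values under METH above, help to define the cluster, so these numbers are no separate evidence, and the part of the cluster in those values was not tested. The Mybpc1 cluster held 16, 4, 3 and 5 nuclei, most of them from METH 1.

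The cluster of 25 was led by Uprt and Tac1, with 21 Tac1 UMIs in 12 nuclei (176 CPM against 33.7), and held 8, 6, 3 and 8 nuclei. The cluster of 35 was led by the matrix genes Egflam and Hmcn1, with Hs3st5 and Lamb1, and held 14, 9, 9 and 3 nuclei. A cluster of 10 (6, 3, 0 and 1 nuclei) was led by Col5a2, Unc5b and Angpt1, and Unc5b is 1 of the chandelier markers, but its 9 UMIs there were in 3 nuclei, and 1 such marker among the leading genes is too few for a name. A cluster of 14 (7, 0, 4 and 3 nuclei) was led by Grm8, Cacna2d3, Meis2 and Grm7, genes that are otherwise low in the Pvalb nuclei. Its 41 Meis2 UMIs were in 3 nuclei, and 3 of the 14 had high doublet scores. Kcnc2 (3202 CPM against 6857 in the rest), Erbb4 (2353 against 5255) and Kcnc1 (313 against 623) were lower there. Of the Pvalb interneuron markers outside the rule, only Lhx6 and Eya4 were not lower, so these 14 fit the Pvalb label less well. The smallest, of 8 (2, 4, 1 and 1 nuclei), was led by the myelin genes Mobp, Mbp and Mog, with 5 oligodendrocyte, 2 astrocyte and 1 microglial marker among its 10 leading genes, and 7 of the 8 had high doublet scores.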

How the data were processed

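The libraries are droplet-based and read the 3' end of transcripts (10x Genomics), per the labels' protocols. UMI counts per gene and barcode were deposited, made by the authors with Cell Ranger 7.0.0, per the file headers; the submitters' processing notes name the same tool. Those notes name hg38, while the gene identifiers are rat; no rat build was found in these sources, and positions are therefore left out. The files list 25399 genes, and 148 symbols are shared by more than 1 identifier. Near-identical gene copies and overlapping or antisense genes could share reads in the authors' counting.

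Barcodes under 500 genes (2662) or over 5% mitochondrial UMIs (68) were left out. Libraries held 37758602 to 44034787 UMIs. The UMIs of all nuclei of a class were added up within each library. METH and saline were compared with edgeR 4.0.16 in R 4.3.3 (TMM, filterByExpr, robust quasi-likelihood F test, two-sided, Benjamini-Hochberg over all genes tested, calls under 0.05). The SE is the log2 fold change over the square root of F. The 7 rule genes stayed in the totals and out of the tests. DESeq2 1.42.0 was an alternative, and the edgeR step was tested on simulated data. Scrublet scores were computed per library, and the highest 0.8% per 1000 barcodes were removed in an alternative only. Clusters among the members came from Scanpy 1.11.5 (2000 variable genes, 15 components, 10 neighbours, Leiden resolution 1, seed 1). Intervals are exact Clopper-Pearson at 95%.

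Named genes were chosen by rule. For METH against saline they are the 5 of smallest p in a direction with no call, the 2 of smallest p in each list, and Cst3, Mybpc1, Fos, Arc, Npas4, Acan, Lhx6, Kcnc1, Kcnc2 and Tac1. For the class-by-treatment term they are the genes called or the 3 of smallest p. For the profile they are the 20 genes with the largest and the 12 with the smallest ratio in their weakest library, and 4 high and 2 low members of each list. For clusters the 5 leading genes count. Other list members named in the text were chosen after their values were seen. Some genes these rules chose are not reported here. The members, the 14 gene lists and the 13 marker lists were chosen with earlier results of these data known. Same-numbered replicates were checked for pairing. Over 3929 genes the difference between replicates 1 and 2 in METH correlated with that in saline at 0.0196. This shows no pairing, but it cannot exclude one, because many of these genes had few counts.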

Additional observations from a re-analysis of the deposited data

Results flagged for a closer look

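Meis2 stood apart because the METH effect in the Pvalb nuclei differed from that in the other GABAergic nuclei by a test of the difference itself: 4.78 on the log2 scale (edgeR adjusted p = 0.00881). Of its 46 UMIs in the Pvalb nuclei, 38 were in a single METH 1 nucleus, and without METH 1 the difference was 1.03 (edgeR adjusted p = 1.000).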

How the results depend on the processing

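Against 0 genes called between METH and saline, no filter on low counts gave 4 calls, and leaving out 1 library at a time gave 0 to 7. Taking in the nuclei with no Pvalb UMI gave 1 and those nuclei alone gave 1, both chosen after seeing the data. Against 1 gene called by the class-by-treatment term, the counts were 0 with at least 10 counts in every library, 0 with at least 2 Pvalb UMIs, 5 with equal numbers of nuclei, 0 after thinning to 2000 UMIs, and 0 to 3 with 1 library left out. The share difference of 2.10 points became 0.437 with at least 2 Pvalb UMIs, 0.471 after thinning and 3.19 with at least 4 UMIs of Gad1 and Gad2. Of the profile, 9 genes at least 2-fold higher became 20 with 1 CPM added, 3 with 50 CPM added, 4 with at least 2 Pvalb UMIs and 14 to 16 with 1 library left out, and 136 lower became 48 with 50 CPM added. The cause was not tested for any of these.

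The replicate number as a block gave 4 calls, among them Hook1, Il1rapl2 and Mbp, with an edgeR adjusted p of 0.0456 for Hook1 and 0.00126 for Il1rapl2, and a log2 fold change of -0.12 for Homer1. By the labels the same-numbered libraries share only a number. The correlation of 0.0196 shows no pairing and cannot exclude one, and the cause of these calls was not tested.

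Of the recomputed log2 fold changes of named genes, 471 kept direction and side of the threshold, 46 changed sign and 6 became calls. None of those that changed sign had been called. In the nuclei with no Pvalb UMI alone they were Hook1 -0.078, Pcdh19 -0.0065, Nasp -0.12, Bcl11a 0.0010, Gabbr2 0.049, Gabrb1 -0.24, Adamts15 0.25, Adra1a 0.040, Tenm2 0.12, Cox4i1 -0.038, Mt-atp6 -0.15, Mt-cyb -0.25, Homer1 -0.30 and Kcnc1 0.024. With those nuclei taken in they were Gabrb1 -0.21, Adamts15 0.20, Adra1a 0.032, Tenm2 0.052, Mt-atp6 -0.099, Mt-cyb -0.20, Homer1 -0.26 and Kcnc1 0.063. With equal numbers of nuclei they were Oprd1 -0.064, Homer1 -0.23, Kcnc1 0.018 and Kcnc2 -0.00084. Without the highest doublet scores Adra1a was 0.011 and Kcnc1 0.022, and without the nuclei with myelin RNA Adra1a was 0.038, Homer1 -0.19 and Kcnc1 0.011. Homer1 was -0.054 by DESeq2 and -0.55 with at least 2 Pvalb UMIs, where the Foxp2 term was 7.16. Kcnc1 was 0.045 with no filter, 0.036 with at least 10 counts and 0.00051 without TMM. With 1 library left out, the ranges that crossed 0 were -1.03 to 0.25 for Bcan, -0.25 to 0.056 for Adra1a, -0.53 to 0.0013 for Esrrg, -0.47 to 0.32 for Homer1, -0.026 to 0.024 for Kcnc1 and -0.12 to 0.26 for Kcnc2. The cause of these sign changes was not tested. The shallowest library held 94499 UMIs in its Pvalb nuclei, which limits the precision of the levels in them, and 1535403 in its nuclei with no Pvalb UMI.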
